A study of Mus musculus with 24 samples.

Results

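The livers of mice that lack both xenobiotic receptors, the constitutive androstane receptor (CAR) and the pregnane X receptor (PXR), were compared with wild type livers for their response to pregnenolone 16α-carbonitrile (PCN), a synthetic steroid that activates mouse PXR. The comparison used 12 of the 24 arrays in the study, 6 labelled CAR/PXR-deficient and 6 labelled wild type, chosen by the genotype in their labels. The mice, per the labels, were C57BL/6J males of 9 to 12 weeks that received PCN at 40 mg/kg by intraperitoneal injection and were killed after 12 h. On every array, RNA from livers after PCN carried Cy5, and Cy3 marked pooled RNA from livers of the same genotype given the vehicle, 5% DMSO in corn oil, so that each log2 ratio of Cy5 over Cy3 is a response to PCN within a genotype. The other 12 arrays, 6 CAR-deficient and 6 PXR-deficient, had the same layout and served here for the spread and for a comparison with the single losses. The labels give no design of the deletions and name a single vehicle pool per genotype, which they also call untreated. The labels also mention pooled RNA of 6 replicates without saying for which channel. The p-values therefore measure the spread between arrays, which may be partly technical. All arrays of a genotype share its vehicle pool. The p-values, SE and intervals of a genotype difference thus leave out the spread between pools, and a difference between the pools enters it unreplicated. The p-values of a response within a genotype leave that spread out as well, and an unusual pool enters the response unreplicated. With PCN in Cy5 on every array, a dye effect specific to a probe also stays in that response. Raised and lowered therefore describe the ratio to the pool only.

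PXR and CAR are ligand-activated nuclear receptors that are abundant in hepatocytes. Both pair with the retinoid X receptor on repeated half-sites in DNA and raise the transcription of enzymes and transporters that oxidise, conjugate and export drugs, steroids and bile acids. The Cyp3a genes, which encode the cytochrome P450 enzymes that oxidise a large share of drugs, are the best known PXR targets in the liver. Activated PXR is also known to restrain inflammatory signalling in hepatocytes, the main source of acute phase proteins such as fibrinogen and C-reactive protein.

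The Steroltalk V2 array carried 284 mouse probes, of which 236 were bright enough to be tested and 128 of those had a gene name. The difference tested throughout is the log2 ratio in CAR/PXR-deficient livers minus that in wild type livers, from a limma model. A probe is called when its p, adjusted by Benjamini-Hochberg across the 236 tested probes, is under 0.05. Of the 236 probes, 46 (19.5%) differed, 26 higher (11.0%) and 20 lower (8.47%) in CAR/PXR-deficient livers. At an unadjusted p under 0.05 the count was 71 (30.1%). The arrays of both genotypes did not overlap for 33 probes (14.0% of those tested), 32 of which were among the 46. The median difference over all tested probes was 0.01. The difference reached 2-fold for 13 probes, 9 higher and 4 lower. When arrays were centred on their control probes in place of loess, 19 of the 46 calls were kept, among them Cyp3a11, Cyp3a41a, Cyp3a13, Mbtps1, Cyp4b1, Fgb, Crp and C4bp, and the calls of Slco1b2, Alas1, Cyp2a12, Apoa1, Abcc1, Abcc2, Abcc3, Abca1, Cyp1a2, Srebf2, Cry1 and Ppard were lost.

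**Figure D1:**
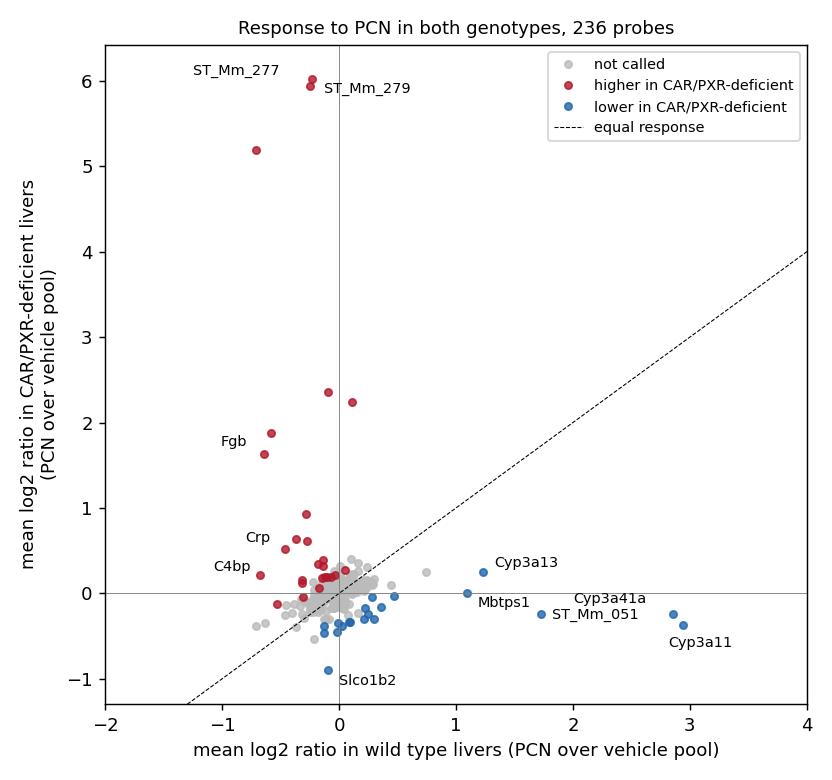
Mean log2 ratio of PCN-treated over vehicle-treated RNA in CAR/PXR-deficient livers (y axis) against that in wild type livers (x axis), 1 point per tested probe (236) and 6 arrays per mean. Probes called higher in CAR/PXR-deficient livers are red, those called lower blue, and the dashed line marks an equal response. The Cyp3a11 and Cyp3a41a points lie far to the right near a CAR/PXR-deficient mean of 0, and ST_Mm_277 and ST_Mm_279 lie near 6 on the y axis with wild type means of -0.23 and -0.25.

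The receptor probes themselves were dim. The Cy5 level of Nr1i2, the gene of PXR, was 8.01 at the lowest, 8.37 at the median and 8.70 at the highest on the 6 CAR/PXR-deficient arrays, against 7.44, 7.76 and 7.92 on the wild type arrays (log2 units after normalization between arrays). The Cy5 level of Nr1i3, the gene of CAR, was 7.61, 7.73 and 7.85 on the CAR/PXR-deficient arrays, against 7.72, 8.03 and 8.20 on the wild type arrays. The Nr1i2 signal was thus not lower on the arrays labelled as lacking PXR. The median Nr1i3 level was lower on the CAR/PXR-deficient than on the wild type arrays, with overlapping ranges. It was 7.69 on CAR-deficient and 8.06 on PXR-deficient arrays, against 7.67 and 7.88 for Nr1i2 in that order. Where these probes lie relative to the deleted parts is not given in the sources used here. Neither probe was therefore used to check the genotype, and every direction below rests on the labels. Of the hepatocyte markers, Apoa1 and Cyp2e1 had a named probe, and both were above background in both channels on 6 of 6 arrays of each genotype. CAR/PXR-deficient replicates 5 and 6 had a Cy5 background of 0, with 14.3% of Cy5 spots at 0 on replicate 5 and 18.1% on replicate 6. Without both arrays 44 probes differed in place of 46, and Cyp1a2, Srebf2, Cry1 and Ppard were no longer called. Log2 ratios of 1 CAR/PXR-deficient and 1 wild type array correlated at -0.37 to 0.09 over the 284 mouse probes, tested or not, with 1 of 36 such pairs under -0.3. The median correlation was 0.94 among CAR/PXR-deficient arrays and 0.76 among wild type arrays. How far the probes with the largest ratios set these values was not tested. The labels state the dye of each RNA, and the direction follows them.

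The promoters of 4 genes are shown because the results turn on these genes: 3 Cyp3a genes that responded in wild type livers, and Fgb, the named gene with the most positive difference. Each runs 5′ to 3′ from 250 bases before the start site to 50 after it, from RefSeq with build GRCm38.p6. Capitals mark every match, on either strand, to AGGTCA or AGTTCA, half-sites of the kind that PXR and CAR bind in repeats, and to CTGGGAA, a sequence of the kind bound by STAT3 in acute phase genes.
Cyp3a11, chr5:145879805-145880104, minus strand: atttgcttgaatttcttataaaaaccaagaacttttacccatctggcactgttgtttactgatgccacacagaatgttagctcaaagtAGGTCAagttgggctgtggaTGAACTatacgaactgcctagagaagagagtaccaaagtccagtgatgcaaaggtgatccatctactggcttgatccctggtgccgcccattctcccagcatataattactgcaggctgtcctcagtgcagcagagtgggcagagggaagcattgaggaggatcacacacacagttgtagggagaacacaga
Cyp3a41a, chr5:145720087-145720386, minus strand: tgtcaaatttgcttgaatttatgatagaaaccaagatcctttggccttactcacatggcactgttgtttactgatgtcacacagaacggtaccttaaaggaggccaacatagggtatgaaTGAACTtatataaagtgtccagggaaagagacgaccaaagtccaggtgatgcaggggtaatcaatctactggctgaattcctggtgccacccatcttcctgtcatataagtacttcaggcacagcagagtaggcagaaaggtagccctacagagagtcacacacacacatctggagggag
Cyp3a13, chr5:137921570-137921869, minus strand: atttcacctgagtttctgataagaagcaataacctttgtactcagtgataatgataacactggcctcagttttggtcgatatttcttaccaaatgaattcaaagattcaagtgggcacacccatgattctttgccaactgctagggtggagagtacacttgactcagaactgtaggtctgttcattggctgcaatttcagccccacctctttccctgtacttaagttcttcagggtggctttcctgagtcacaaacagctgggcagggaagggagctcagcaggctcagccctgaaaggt
Fgb, chr3:83049814-83050113, minus strand: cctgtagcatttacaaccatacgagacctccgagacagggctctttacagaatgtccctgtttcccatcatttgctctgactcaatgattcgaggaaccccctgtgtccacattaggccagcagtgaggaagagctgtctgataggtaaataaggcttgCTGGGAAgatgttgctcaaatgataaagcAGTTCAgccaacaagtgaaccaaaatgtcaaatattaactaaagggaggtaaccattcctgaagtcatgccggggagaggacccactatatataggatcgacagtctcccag

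Over all 32851 RefSeq mouse promoters of this length, 16.3% held AGGTCA, 14.0% held AGTTCA and 11.1% held CTGGGAA on either strand, and no 2 of the motifs overlapped in the windows shown. The Cyp3a11 window held 1 match to AGGTCA and 1 to AGTTCA, the Cyp3a41a window 1 to AGTTCA, and the Cyp3a13 window none. The Fgb window held 1 match to AGTTCA and 1 to CTGGGAA. The Cyp3a11 and Cyp3a41a windows were identical at 72.5% of the positions of their global alignment, against 59.3% for Cyp3a11 with Cyp3a13 and 53.2% for Cyp3a11 with Fgb. These matches describe the letters only.

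Among the named genes, Cyp3a11 and Cyp3a41a had the most negative differences, followed by Mbtps1 and Cyp3a13. Cyp3a11, the main Cyp3a enzyme of mouse liver, had log2 ratios of -0.99 at the lowest, -0.29 at the median and -0.08 at the highest in CAR/PXR-deficient livers, against 2.61, 2.90 and 3.35 in wild type livers. All 6 CAR/PXR-deficient arrays lay below 0 and all 6 wild type arrays far above it, and the groups did not overlap. The difference was -3.31 ± 0.20 (SE, 95% interval -3.73 to -2.89), a 9.95-fold smaller ratio, with an adjusted p of 8.45e-13 in limma. In wild type livers Cyp3a11 after PCN was 7.68-fold above the vehicle pool (adjusted p = 4.53e-15 in limma). The CAR/PXR-deficient mean of -0.37 ± 0.33 (SD, n = 6) did not pass the test in limma (adjusted p = 0.0596). In bulk liver RNA, fewer cells of a type and less RNA per cell cannot be told apart.

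Cyp3a41a, a close relative of Cyp3a11 in the same gene cluster, had log2 ratios of -0.60, -0.27 and 0.07 (lowest, median and highest) in CAR/PXR-deficient livers, against 2.58, 2.88 and 2.99 in wild type livers. Again no array of one genotype reached the range of the other. The difference was -3.09 ± 0.17 (SE), 8.53-fold, with an adjusted p of 5.71e-14 in limma. The Cyp3a genes are similar in sequence, and a spotted probe can take up RNA of more than 1 of them, so the values of Cyp3a11 and Cyp3a41a need not be independent.

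Cyp3a13, a more distant member of the family, kept a small positive ratio. Its log2 ratios were 0.12, 0.25 and 0.39 in CAR/PXR-deficient livers, against 1.06, 1.21 and 1.42 in wild type livers. Every array of both genotypes was above 0, and the groups did not overlap. The difference was -0.98 ± 0.11 (SE), 1.98-fold, with an adjusted p of 4.48e-08 in limma. The ratio of Cyp3a13 to the vehicle pool passed the test against 0 in both genotypes. It was 1.19-fold in CAR/PXR-deficient livers (adjusted p = 0.0162 in limma) and 2.35-fold in wild type livers (adjusted p = 6.73e-13 in limma).

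A probe with no gene name, ST_Mm_051, had the most reduced response of all probes after Cyp3a11 and Cyp3a41a. Its log2 ratios were -0.42, -0.27 and -0.01 in CAR/PXR-deficient livers, against 1.36, 1.79 and 1.94 in wild type livers, with no overlap. The difference was -1.96 ± 0.11 (SE), 3.90-fold, with an adjusted p of 5.71e-14 in limma. The second unnamed probe in order of size, ST_Mm_037, differed by -0.49 ± 0.10 (SE, adjusted p = 0.000482 in limma).

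**Figure D2:**
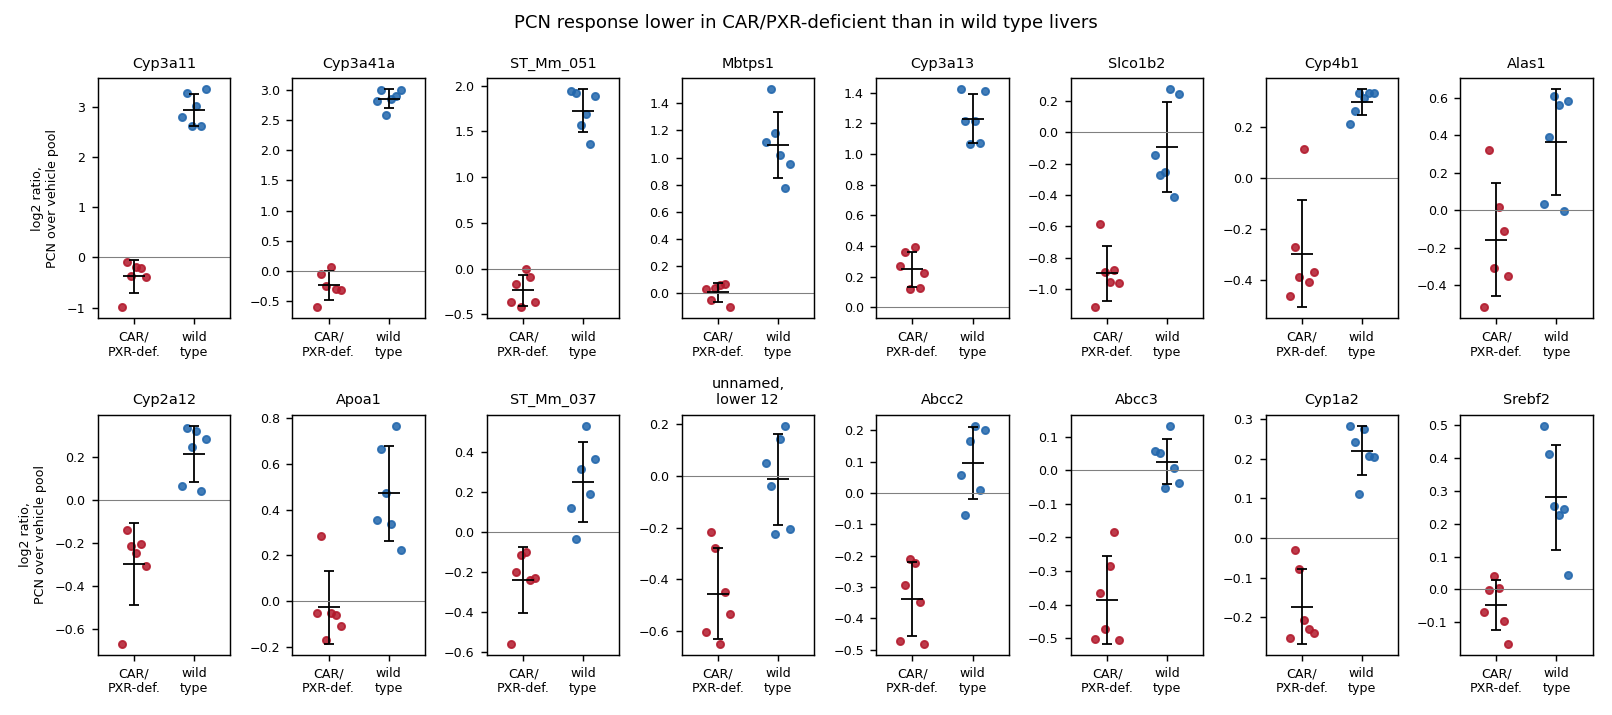
Log2 ratio of PCN-treated over vehicle-treated RNA (y axis, a scale of its own in each panel) on each of 6 CAR/PXR-deficient (red, left) and 6 wild type arrays (blue, right) for the 16 described probes with a lower response in CAR/PXR-deficient livers. Black marks give the mean and SD of a genotype. Cyp3a11 and Cyp3a41a show the widest gaps, and Alas1 and Apoa1 are among the panels in which the genotypes overlap.

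Of 6 tested PXR and CAR target genes of drug metabolism, 4 fell relative to wild type and none rose, beside 8.47% of all tested probes called lower; the median difference of these 6 was -0.75, beside 0.01 for all tested probes. The fourth of them was Alas1, the rate-limiting enzyme of heme synthesis. Its log2 ratios were -0.52, -0.21 and 0.32 in CAR/PXR-deficient livers, against -0.01, 0.48 and 0.61 in wild type livers. The ranges overlapped, and the difference was -0.52 ± 0.12 (SE, adjusted p = 0.00200 in limma). Cyp2c40 had means of -0.54 ± 0.19 in CAR/PXR-deficient livers and -0.21 ± 0.20 in wild type livers (SD, n = 6 each) and narrowly missed the threshold in limma (adjusted p = 0.0524). Cyp2b13 differed by 0.07 (adjusted p = 0.598 in limma).

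Of 12 tested probes on a list of other cytochrome P450 genes, 1 fell and none rose, with a median difference of -0.05. For this list the share is near the 8.47% of all tested probes called lower. The gene was Cyp1a2, which oxidises aromatic amines and caffeine and is a target of the aryl hydrocarbon receptor. Its log2 ratios were -0.25, -0.22 and -0.03 in CAR/PXR-deficient livers, against 0.11, 0.22 and 0.28 in wild type livers. The genotypes lay on opposite sides of 0 without overlap, and the difference was -0.39 ± 0.11 (SE, adjusted p = 0.0134 in limma). Without CAR/PXR-deficient replicates 5 and 6 the adjusted p was 0.0589 in limma, and with median centring it was 0.205. A further pair of P450 genes, called lower but outside both lists, was among the 12 most reduced probes. The share above therefore describes the list and not all tested P450 genes.

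The first of that pair was Cyp4b1, a family 4 enzyme, with log2 ratios of -0.46, -0.38 and 0.11 in CAR/PXR-deficient livers, against 0.21, 0.32 and 0.33 in wild type livers. Its difference was -0.59 ± 0.08 (SE, adjusted p = 1.72e-06 in limma). After PCN, Cyp4b1 was below the vehicle pool in CAR/PXR-deficient livers (adjusted p = 0.000263 in limma). It was above the pool in wild type livers (adjusted p = 0.000328 in limma), by 1.23-fold in each case. The second was Cyp2a12, an enzyme that hydroxylates steroids, with log2 ratios of -0.67, -0.23 and -0.14 in CAR/PXR-deficient livers, against 0.04, 0.26 and 0.33 in wild type livers. Its difference was -0.51 ± 0.10 (SE, adjusted p = 0.000417 in limma), and neither gene's arrays overlapped between genotypes.

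Of 13 tested membrane transporters, 3 fell and 2 rose, beside 8.47% of all tested probes called lower and 11.0% called higher, with a median difference of -0.04. Slco1b2, which takes up bile acids and drugs from the blood into hepatocytes, had log2 ratios of -1.12, -0.93 and -0.59 in CAR/PXR-deficient livers, against -0.41, -0.20 and 0.27 in wild type livers. After PCN, Slco1b2 was 1.86-fold below the vehicle pool in CAR/PXR-deficient livers (adjusted p = 2.79e-09 in limma). The wild type mean of -0.09 ± 0.29 (SD, n = 6) did not pass the test in limma (adjusted p = 0.401). The difference was -0.81 ± 0.12 (SE, adjusted p = 5.32e-06 in limma), with no overlap.

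The other 2 transporters that fell are exporters of conjugated compounds. Abcc2, which exports conjugates into bile, had log2 ratios of -0.48, -0.32 and -0.21 in CAR/PXR-deficient livers, against -0.07, 0.11 and 0.21 in wild type livers. Its difference was -0.43 ± 0.07 (SE, adjusted p = 5.03e-05 in limma). Abcc3, which exports them into blood, had log2 ratios of -0.50, -0.42 and -0.19 in CAR/PXR-deficient livers, against -0.05, 0.03 and 0.13 in wild type livers. Its difference was -0.41 ± 0.07 (SE, adjusted p = 0.000122 in limma). For both genes all 6 CAR/PXR-deficient arrays were below 0 and below every wild type array.

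Abca1, which exports cholesterol to apolipoprotein A-I, rose relative to wild type. Its log2 ratios were 0.05, 0.10 and 0.20 in CAR/PXR-deficient livers, against -0.78, -0.26 and -0.04 in wild type livers. The genotypes lay on opposite sides of 0, and the difference was 0.43 ± 0.10 (SE, adjusted p = 0.00260 in limma). Abcc1, a further exporter, had log2 ratios of 0.18, 0.41 and 0.58 in CAR/PXR-deficient livers, against -0.42, -0.12 and 0.15 in wild type livers, and differed by 0.52 ± 0.12 (SE, adjusted p = 0.00200 in limma). Its Cy3 signal was not well above background on any CAR/PXR-deficient array, so that its ratio there is only a bound, at least 1.01-fold against a measured log2 mean of 0.39, each dim array being set to the higher of its own signal and the lowest signal among probes above background. Centring each array on its median in place of loess ended the Abcc1 call (adjusted p = 0.180 in limma). Slco1a4, a drug uptake transporter known as a PXR target, did not pass the test of the difference in limma (-0.50 ± 0.22 SE, adjusted p = 0.111), with means of 0.25 ± 0.26 in CAR/PXR-deficient livers and 0.75 ± 0.49 in wild type livers (SD, n = 6 each).

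Fgb, Crp and C4bp were the named genes among the 12 most positive differences. Fgb, the β chain of the clotting protein fibrinogen, had log2 ratios of 1.32, 1.67 and 1.89 in CAR/PXR-deficient livers, against -0.87, -0.63 and -0.47 in wild type livers. All 6 CAR/PXR-deficient arrays were above 0 and all 6 wild type arrays below it. The difference was 2.28 ± 0.18 (SE, 95% interval 1.90 to 2.66), 4.86-fold, with an adjusted p of 1.60e-10 in limma. After PCN, Fgb was 3.11-fold above the vehicle pool in CAR/PXR-deficient livers (adjusted p = 1.38e-10 in limma). It was 1.56-fold below the pool in wild type livers (adjusted p = 0.000537 in limma).

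Crp, C-reactive protein, was the 1 tested member of the acute phase list. Its log2 ratios were 0.43, 0.50 and 0.62 in CAR/PXR-deficient livers, against -0.65, -0.45 and -0.24 in wild type livers. As for Fgb, every CAR/PXR-deficient array was above 0 and every wild type array below it. The difference was 0.99 ± 0.13 (SE), 1.98-fold, with an adjusted p of 7.91e-07 in limma. C4bp, which binds complement C4b and limits complement activation, had log2 ratios of -0.07, 0.21 and 0.53 in CAR/PXR-deficient livers, against -1.29, -0.56 and -0.39 in wild type livers. Its difference was 0.90 ± 0.16 (SE, adjusted p = 0.000128 in limma), again without overlap. After PCN, C4bp was below the vehicle pool in wild type livers (adjusted p = 9.12e-05 in limma). Its CAR/PXR-deficient mean of 0.22 ± 0.21 (SD, n = 6) did not pass the test in limma (adjusted p = 0.175).

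The 3 most positive differences came from probes without a gene name. ST_Mm_277 had log2 ratios of 5.66, 6.00 and 6.60 in CAR/PXR-deficient livers, against -0.54, -0.28 and 0.30 in wild type livers. ST_Mm_279 had log2 ratios of 5.65, 5.91 and 6.46 in CAR/PXR-deficient livers, against -0.54, -0.31 and 0.35 in wild type livers. Both probes were thus far above 0 on all 6 arrays of one genotype and near 0 in the other. The difference of ST_Mm_277 was 6.26 ± 0.47 (SE, 76.4-fold, adjusted p = 4.37e-11 in limma) and that of ST_Mm_279 was 6.19 ± 0.45 (SE, 73.1-fold, adjusted p = 2.08e-11 in limma). The third such probe differed by 5.90 ± 0.41 (SE).

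Of the 12 most positive differences, 9 belonged to probes without a gene name, and the other 6 of these differed by 0.88 to 2.46. Whether any of them measure the same transcript as a neighbour is not known here.

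**Figure D3:**
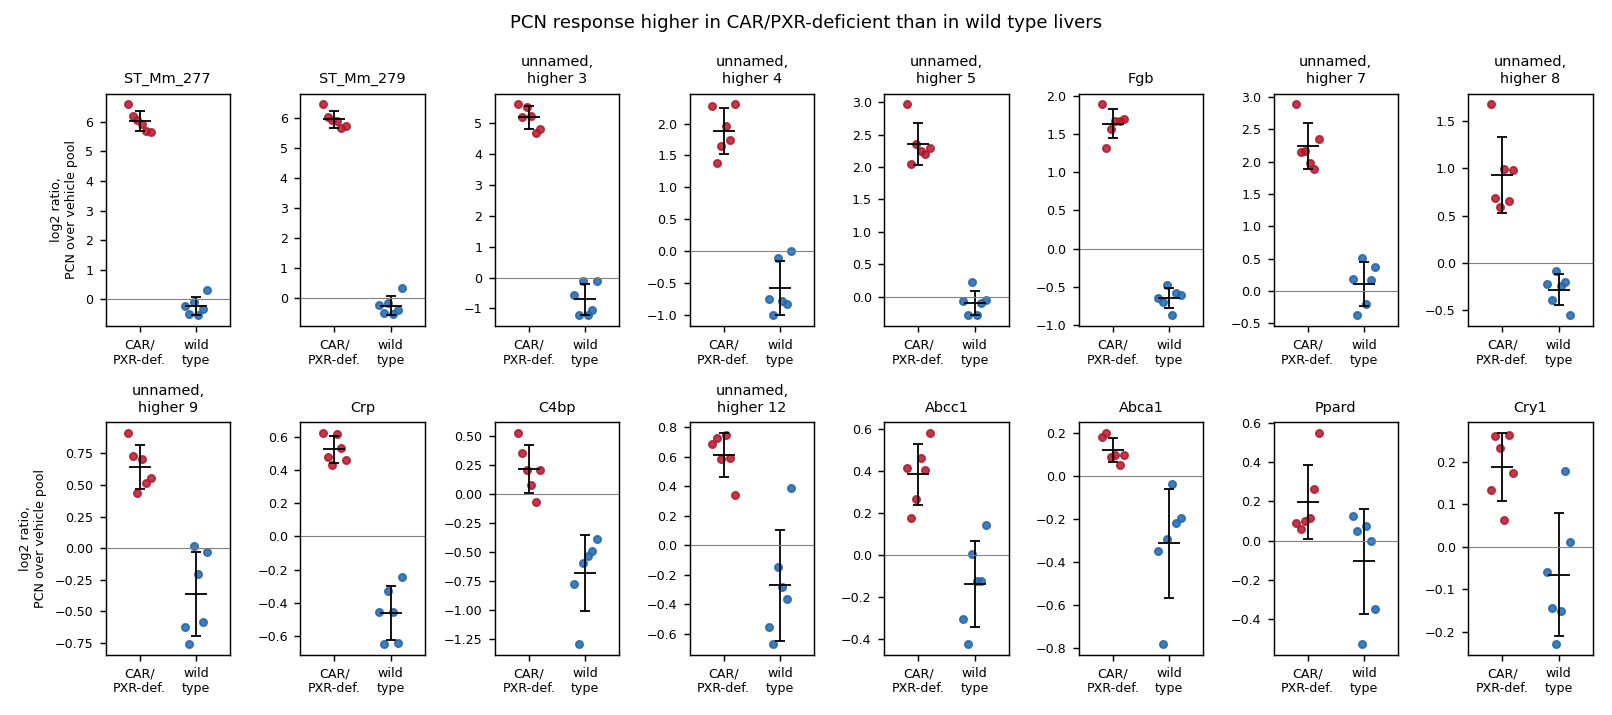
Log2 ratio of PCN-treated over vehicle-treated RNA (y axis, a scale of its own in each panel) on each of 6 CAR/PXR-deficient (red, left) and 6 wild type arrays (blue, right) for the 16 described probes with a higher response in CAR/PXR-deficient livers, with unnamed probes given by their rank in the difference. Black marks give the mean and SD of a genotype. Fgb and Crp lie on opposite sides of 0 in the genotypes, whereas the Cry1 and Ppard arrays overlap.

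None of 8 tested genes of cholesterol synthesis passed the threshold in limma, with a median difference of 0.06 and a range from -0.13 for Mvd to 0.15 for Hmgcs1. At the smallest adjusted p in that list, 0.416, Hmgcs1, which makes the precursor of mevalonate, had a 95% interval of -0.09 to 0.40. None of 4 tested genes of bile acid synthesis passed, with a median difference of 0.03; Cyp7a1, the rate-limiting enzyme of that pathway, differed by -0.18 (95% interval -0.37 to 0.02, adjusted p = 0.205 in limma).

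Of 8 tested genes of the SREBP pathway, which switches on cholesterol synthesis and uptake, 2 fell and none rose, beside 8.47% of all tested probes called lower, with a median difference of -0.06. Mbtps1, the protease that makes the first cut in SREBP proteins, had log2 ratios of -0.10, 0.04 and 0.07 in CAR/PXR-deficient livers, against 0.78, 1.07 and 1.50 in wild type livers. The arrays did not overlap, and the difference was -1.08 ± 0.11 (SE, 2.12-fold, adjusted p = 2.49e-08 in limma). The probe was dim in Cy3, above background on 3 of 6 CAR/PXR-deficient and 3 of 6 wild type arrays.

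Srebf2, the transcription factor of this pathway, had log2 ratios of -0.17, -0.03 and 0.04 in CAR/PXR-deficient livers, against 0.04, 0.25 and 0.50 in wild type livers, and differed by -0.33 ± 0.10 (SE, adjusted p = 0.0215 in limma). Its Cy3 signal was not well above background on any wild type array, where the ratio is a bound of at least 1.03-fold beside a measured log2 mean of 0.28. Leaving out wild type replicate 1 or 2 moved its adjusted p in limma to 0.0604 and 0.0521. Of 27 alternative settings of the processing or the arrays used, 7 ended the Srebf2 call. Without background correction its adjusted p was 0.375 in limma.

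Apoa1, the main protein of high-density lipoprotein, had log2 ratios of -0.17, -0.06 and 0.29 in CAR/PXR-deficient livers, against 0.23, 0.41 and 0.77 in wild type livers. The ranges overlapped through 1 CAR/PXR-deficient array, and the difference was -0.50 ± 0.12 (SE, adjusted p = 0.00286 in limma). Print-tip loess and median centring each ended this call (adjusted p = 0.0778 and 0.381 in limma).

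Of 21 tested probes on a list of nuclear receptors and some of their co-regulators, 1 rose and none fell, beside 11.0% of all tested probes called higher and 8.47% called lower, with a median difference of -0.01. The list does not hold Crebbp, a co-activator named here after its values were seen, which was called higher (0.40, adjusted p = 0.00200 in limma). Ppard, a fatty acid receptor, had log2 ratios of 0.06, 0.11 and 0.55 in CAR/PXR-deficient livers, against -0.53, 0.02 and 0.13 in wild type livers, and lay just inside the threshold with a difference of 0.30 ± 0.11 (SE, adjusted p = 0.0495 in limma). It was not well above background in Cy3 of any CAR/PXR-deficient array or in Cy5 of any wild type array, so that no fold is given. The call was lost without CAR/PXR-deficient replicate 1, 3, 4, 5 or 6 and without wild type replicate 3 or 6, at adjusted p of 0.0529 to 0.146 in limma. Of 27 alternative settings of the processing or the arrays used, 19 ended the Ppard call. Median centring brought its difference to 0.001 (adjusted p = 0.995 in limma).

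Of 4 tested probes of the circadian clock, 1 rose and none fell, beside 11.0% of all tested probes called higher, with a median difference of -0.06; Nr1d2 and Rora also counted among the nuclear receptors. Cry1, a repressor in the clock's feedback loop, had log2 ratios of 0.06, 0.20 and 0.26 in CAR/PXR-deficient livers, against -0.23, -0.10 and 0.18 in wild type livers, and differed by 0.25 ± 0.08 (SE, adjusted p = 0.0287 in limma). Its Cy3 signal was not well above background on any CAR/PXR-deficient array, where the ratio is a bound of at least 1.03-fold beside a measured log2 mean of 0.19. Without CAR/PXR-deficient replicate 2, 3 or 5, or wild type replicate 2, 3 or 4, its adjusted p in limma was 0.0570 to 0.0768. Of 28 alternative settings of the processing or the arrays used, 12 ended the Cry1 call. Median centring put its adjusted p at 0.589 in limma. Per2 differed by -0.08 (95% interval -0.32 to 0.16).

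A difference of log2 ratios is the genotype difference in the PCN-treated channel, Cy5, minus that in the vehicle pool, Cy3, and both were described after normalization between arrays. The median genotype difference over the tested probes was 0.10 in Cy5 and 0.11 in Cy3. For 31 of the 46 called probes the larger part lay in Cy3, and for 15 it lay in Cy5. Over all tested probes the genotype difference also spread more widely in Cy3 (SD 0.62) than in Cy5 (SD 0.43). The count is therefore not read as a trait of the called probes. Since each genotype had 1 vehicle pool, the Cy3 values of a genotype repeat a single sample and were not tested.

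The Cyp3a11 level in Cy5 was 12.85 ± 0.28 on CAR/PXR-deficient arrays and 14.18 ± 0.60 on wild type arrays (SD, n = 6 each), whereas in Cy3 it was 13.22 ± 0.32 and 11.24 ± 0.34 in the same order of genotypes. The signal after PCN was thus lower, and the signal of the vehicle pool higher, in CAR/PXR-deficient livers. Cyp3a41a had the same signs, with a genotype difference of -1.48 in Cy5 and 1.61 in Cy3. For Cyp3a13 the Cy5 levels were 11.69 ± 0.13 in CAR/PXR-deficient and 11.85 ± 0.26 in wild type livers, and the Cy3 levels 11.44 ± 0.09 and 10.62 ± 0.11 in that order. Most of the Cyp3a13 difference thus lay in the vehicle pool, but without normalization between arrays its parts were -0.89 in Cy5 and 0.09 in Cy3, so that the split depends on that step. The larger part for Cyp3a11 moved to Cy5 without normalization between arrays, with -1.96 in Cy5 and 1.36 in Cy3.

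For Fgb the Cy5 levels were 13.36 ± 0.31 in CAR/PXR-deficient and 11.84 ± 0.43 in wild type livers, and the Cy3 levels 11.73 ± 0.28 and 12.49 ± 0.48 in that order. Its larger part lay in Cy5, but moved to Cy3 without normalization between arrays, with 0.77 in Cy5 and -1.51 in Cy3. ST_Mm_277 had a genotype difference of 2.25 in Cy5 and -4.01 in Cy3, and ST_Mm_279 had 2.31 in Cy5 and -3.89 in Cy3. For both unnamed probes the vehicle pool of CAR/PXR-deficient livers was therefore the dimmer one by more than the PCN-treated livers were brighter, and these signs held under both other normalizations between arrays. Crp differed by 0.22 in Cy5 and -0.76 in Cy3, and the Cy5 sign turned to -0.17 without normalization between arrays. Slco1b2 differed by -0.51 in Cy5 and 0.29 in Cy3, and the Cy3 sign turned to -0.15 without that normalization.

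**Figure D4:**
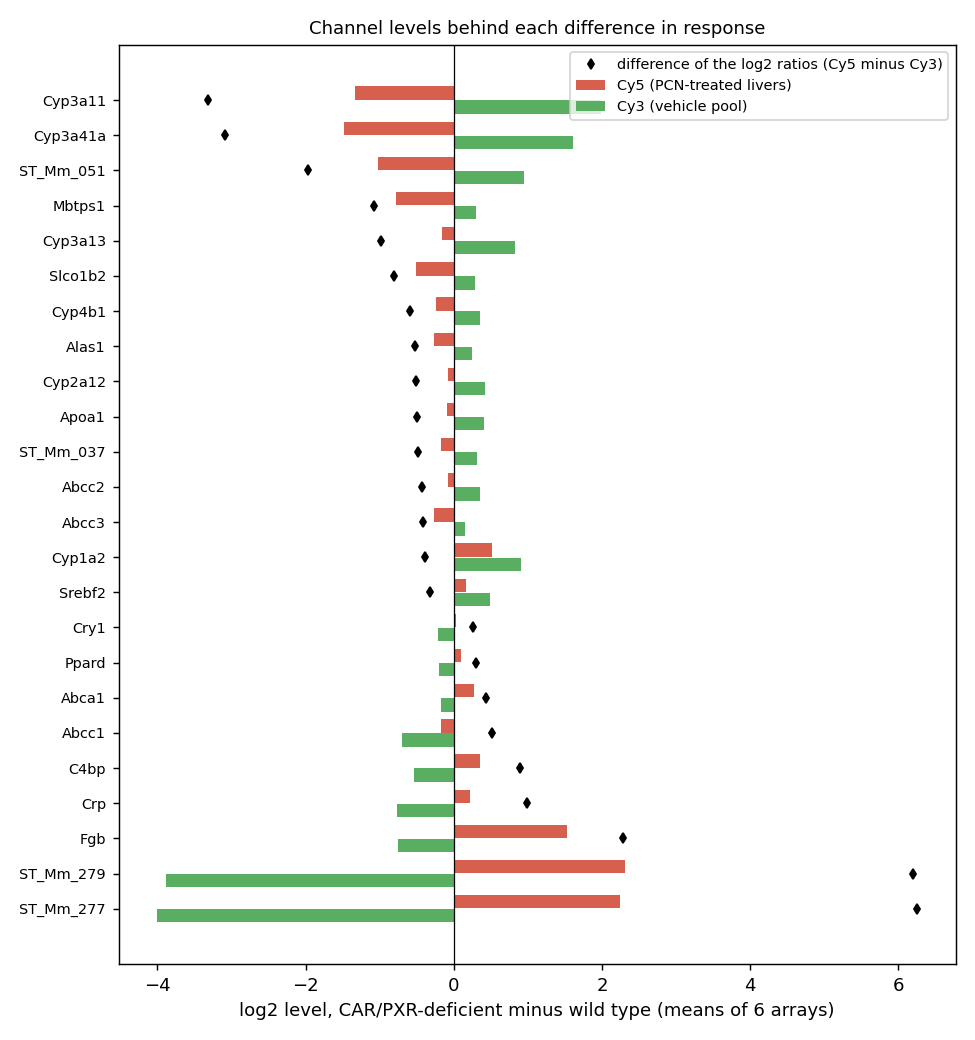
Genotype difference (CAR/PXR-deficient minus wild type, log2 level, x axis) in Cy5, the PCN-treated livers (red bars), and in Cy3, the vehicle pool (green bars), for 24 probes, with black diamonds at the difference of the log2 ratios. Means are over 6 arrays per genotype. The Cy3 bar is the longer one for Cyp3a11, Cyp3a13, ST_Mm_277 and ST_Mm_279, and the Cy5 bar is the longer one for Fgb and Slco1b2.

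Within each genotype the response was also tested against 0. A dye effect specific to a probe is not removed there, and the vehicle pool is not replicated. In CAR/PXR-deficient livers 53 of 236 probes passed in limma (22.5%), 25 raised and 28 lowered. In wild type livers 89 passed (37.7%), 50 raised and 39 lowered. The wild type count rested on single arrays: it was 46 without wild type replicate 1 and 55 without replicate 2. Centring on control probes gave 20 raised and 12 lowered in CAR/PXR-deficient livers and 9 raised and 20 lowered in wild type livers. It kept 27 of the 53 calls in CAR/PXR-deficient livers and 27 of the 89 in wild type livers. The calls within a genotype thus also depend on the centring. The CAR/PXR-deficient count was 34 without replicates 5 and 6 of that genotype.

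To place the loss of both receptors beside the single losses, the same model compared CAR/PXR-deficient livers with each single deficient genotype, and the difference from wild type with the sum of both single differences. These contrasts share arrays, so each stands for itself. In limma, 53 of 236 probes (22.5%) differed from CAR-deficient livers, 27 higher and 26 lower. Against PXR-deficient livers 98 (41.5%) differed, 57 higher and 41 lower. The interaction passed for 101 (42.8%), 58 higher and 43 lower. Centring on control probes turned these splits to 13 higher and 7 lower, 16 and 31, and 16 and 22 in that order. With median centring the splits were 29 higher and 32 lower against PXR-deficient livers and 15 and 28 for the interaction.

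Cyp3a11 averaged -0.37 ± 0.33 in CAR/PXR-deficient livers, 2.23 ± 0.55 with CAR lost alone, 0.30 ± 0.28 with PXR lost alone and 2.94 ± 0.32 in wild type livers (SD, n = 6 each). It was lower in CAR/PXR-deficient than in CAR-deficient livers by -2.60 ± 0.20 (SE, adjusted p = 9.26e-11 in limma) and lower than in PXR-deficient livers by -0.68 ± 0.20 (SE, adjusted p = 0.00997 in limma). The interaction was 0.04 ± 0.29 (SE, 95% interval -0.55 to 0.63), so that a departure from the sum of the single differences, -3.36, was not detected within that interval. Cyp3a41a averaged -0.24 ± 0.24, 1.94 ± 0.47, 0.16 ± 0.28 and 2.85 ± 0.15 in the same order of genotypes, and its difference from PXR-deficient livers did not pass in limma (-0.40 ± 0.17 SE, adjusted p = 0.0559).

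Cyp3a13 averaged 0.25 ± 0.11 in CAR/PXR-deficient livers, 0.79 ± 0.32 with CAR lost alone, -0.01 ± 0.08 with PXR lost alone and 1.23 ± 0.16 in wild type livers. The single differences summed to -1.68, and the interaction was 0.69 ± 0.15 (SE, adjusted p = 0.00111 in limma): the difference of the double loss was smaller than that sum. ST_Mm_051 went beyond the sum of -1.48 by an interaction of -0.48 ± 0.15 (SE, adjusted p = 0.0130 in limma).

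Slco1b2 averaged -0.90 ± 0.18 in CAR/PXR-deficient livers, 0.19 ± 0.16 with CAR lost alone, 0.76 ± 0.21 with PXR lost alone and -0.09 ± 0.29 in wild type livers. By these means each single loss lay above wild type and the double loss below it. The interaction was -1.94 ± 0.17 (SE, adjusted p = 9.63e-10 in limma). The CAR-deficient arrays, at -0.01 to 0.39, overlapped the wild type arrays, at -0.41 to 0.27. Abcc2 averaged -0.34 ± 0.12, 0.07 ± 0.14, 0.40 ± 0.10 and 0.10 ± 0.12 in that order, with an interaction of -0.71 ± 0.10 (SE, adjusted p = 1.01e-05 in limma). Abca1 averaged 0.12 ± 0.06, -0.15 ± 0.07, -0.96 ± 0.26 and -0.31 ± 0.25, with an interaction of 0.92 ± 0.15 (SE, adjusted p = 3.76e-05 in limma).

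Fgb averaged 1.64 ± 0.19 in CAR/PXR-deficient livers, -0.45 ± 0.42 with CAR lost alone, -0.87 ± 0.50 with PXR lost alone and -0.64 ± 0.13 in wild type livers. Only the CAR/PXR-deficient mean of these 4 was above 0. It was higher than in CAR-deficient livers by 2.08 ± 0.18 (SE, adjusted p = 8.41e-10 in limma) and than in PXR-deficient livers by 2.51 ± 0.18 (SE, adjusted p = 2.01e-11 in limma), with an interaction of 2.31 ± 0.26 (SE, adjusted p = 1.35e-07 in limma). ST_Mm_277 averaged 6.03 ± 0.35, -1.35 ± 1.63, -0.79 ± 0.65 and -0.23 ± 0.31 in the same order of genotypes, with an interaction of 7.94 ± 0.67 (SE, adjusted p = 9.01e-10 in limma).

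Crp and C4bp had no interaction past the threshold in limma (0.30 ± 0.18 SE, adjusted p = 0.177, and -0.03 ± 0.23 SE, adjusted p = 0.915). Crp averaged 0.52 ± 0.08, -0.09 ± 0.24, -0.14 ± 0.35 and -0.46 ± 0.16 in the same order, and was higher in CAR/PXR-deficient than in CAR-deficient (adjusted p = 0.000644) and PXR-deficient livers (adjusted p = 0.000172) in limma.

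**Figure D5:**
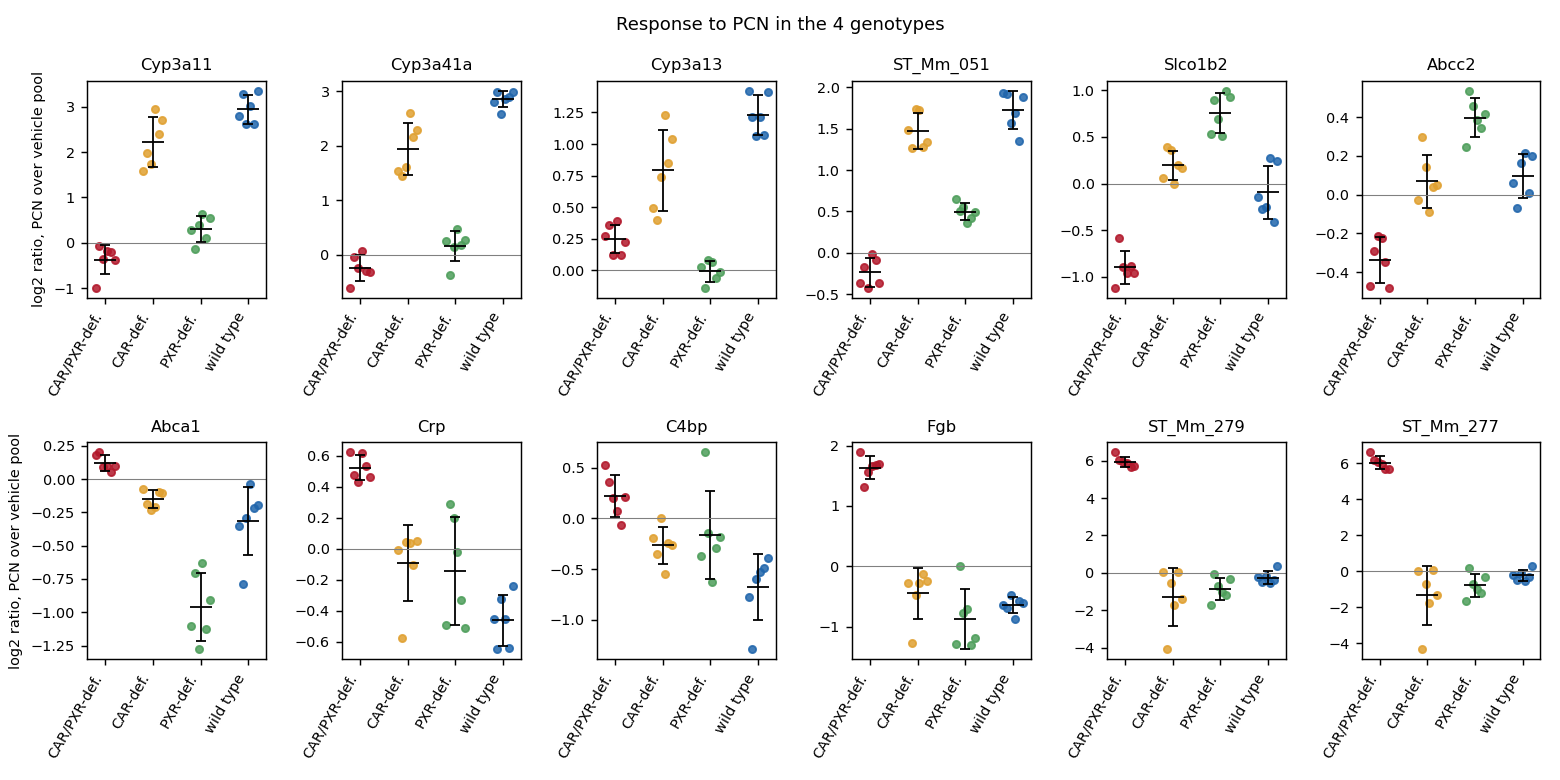
Log2 ratio of PCN-treated over vehicle-treated RNA (y axis, a scale of its own in each panel) on each array of the 4 genotypes for 12 probes, with the mean and SD of 6 arrays in black. Abca1, Crp, Fgb, ST_Mm_277 and ST_Mm_279 are among the probes above 0 in CAR/PXR-deficient livers alone of these 4 genotypes by their means. Cyp3a11 is near 0 in CAR/PXR-deficient and PXR-deficient livers.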

How the data were processed

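Liver RNA was measured on 24 spotted 2-colour arrays (6 per genotype). Per the file headers, the deposited tables give red and green foreground and background intensity per spot, the percent of pixels brighter than background by 2 SD, the percent saturated, and a flag; these deposited intensity values carry no recorded normalization. The deposited series matrix gives log2 ratios whose normalization is not given in the sources used here. Array samples were grouped by title.

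Intensities were corrected with normexp (offset 50, limma 3.58.1, R 4.3.3) and log2 ratios normalized by global loess (span 0.3, 4 iterations). For Cy5 of CAR/PXR-deficient replicate 6 the normexp fit failed (fitted mean background 3230, median foreground 436.5); foreground minus background plus the offset was used there, chosen after the failure was seen. Replicate spots were averaged per probe. Testing was limited to probes for which at least 50% of spots were above background (over 50% of pixels) in either channel on at least 50% of the arrays of a genotype; 48 of 284 mouse probes were not tested. Gene names came from the platform table (147 mouse probes, all matched to RefSeq by Entrez ID). One limma model (lmFit, eBayes) with 4 genotype coefficients was fitted to 24 arrays and checked on simulated data. Channel levels followed loess and Aquantile normalization.

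The 12 most positive and 12 most negative called probes and called members of 11 gene lists are described, with at most 2 IDs per direction for probes without a gene name. The genotypes and lists were chosen with earlier results of these data known. Replicate numbers were not used to pair arrays in the main model. Same-number deviations of CAR/PXR-deficient and wild type arrays correlated at -0.24 to 0.27, over 0.1 in 2 of 6 pairs. So few pairs cannot exclude a shared day or slide.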

Additional observations from a re-analysis of the deposited data

Results flagged for a closer look

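The probes listed here were chosen because they passed the limma test of the difference between genotypes. That each of them passed is therefore no further support. The differences (CAR/PXR-deficient minus wild type, log2) were -3.31 for Cyp3a11, -3.09 for Cyp3a41a, -1.96 for ST_Mm_051, -1.08 for Mbtps1, -0.98 for Cyp3a13, -0.81 for Slco1b2, -0.59 for Cyp4b1, -0.52 for Alas1 and -0.51 for Cyp2a12. They were -0.50 for Apoa1, -0.49 for ST_Mm_037, -0.44 for the unnamed probe ranked 12th among those lower, -0.43 for Abcc2, -0.41 for Abcc3 and -0.39 for Cyp1a2. Among those higher they were 0.43 for Abca1, 0.90 for C4bp, 0.99 for Crp, 2.28 for Fgb, 6.19 for ST_Mm_279 and 6.26 for ST_Mm_277. The other 7 unnamed probes among the 12 most positive differed by 0.88, 1.01, 1.21, 2.13, 2.45, 2.46 and 5.90. The measured differences of 0.25 for Cry1, 0.30 for Ppard, 0.52 for Abcc1 and -0.33 for Srebf2 rest on a channel that was not well above background on any array of a genotype, so their size is not known. For Ppard the bounds do not settle the direction either.

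In 7 of the 64 sets of 6 values examined for these probes, 1 array stood apart from the others of its genotype. All of these were CAR/PXR-deficient arrays. Chance gives about 1 in 20 independent sets, but these sets share the same arrays, so the count cannot be judged against that share. Replicate 1 stood apart 5 times: at -0.99 for Cyp3a11 (nearest other array -0.38), -0.67 for Cyp2a12 (-0.31), -0.56 for ST_Mm_037 (-0.24), and at 1.68 and 2.97 for the unnamed probes ranked 8th and 5th among those higher (0.99 and 2.36). Replicate 4 stood apart at 0.11 for Cyp4b1 (-0.27) and replicate 2 at 0.29 for Apoa1 (-0.05). Without the array that stood apart, the CAR/PXR-deficient mean was -0.25 for Cyp3a11, -0.38 for Cyp4b1, -0.22 for Cyp2a12 and -0.09 for Apoa1. Without replicate 1, 40 probes differed from wild type in place of 46.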

How the results depend on the processing

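Of the 32 described probes, 19 were called under every one of up to 28 alternatives that gave them a value, 13 lost the call under at least 1, and none changed direction. Centring on the control probes gave 19 calls for the main difference in place of 46, 32 in CAR/PXR-deficient livers in place of 53, 29 in wild type livers in place of 89, 20 against CAR-deficient livers in place of 53, 47 against PXR-deficient livers in place of 98, and 38 for the interaction in place of 101; 19 of the 46 main calls were kept. It set the median of all tested probes at -0.11 in CAR/PXR-deficient livers, -0.20 in wild type livers, -0.24 against PXR-deficient livers and -0.22 for the interaction. Median centring gave 42 calls in wild type livers, 33 against CAR-deficient livers, 61 against PXR-deficient livers and 43 for the interaction. The deposited series matrix values, whose direction and log2 scale match the arrays (median slope 0.99) but whose centring is unknown (array medians from -0.33 to 0.16), gave 38 in wild type livers, 35 against CAR-deficient livers and 60 for the interaction. In CAR/PXR-deficient livers, array weights gave 88 calls and leaving out replicates 5 and 6 gave 34. The causes of these changes were not tested.

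Leaving out each CAR/PXR-deficient and wild type array in turn gave 40 to 48 calls for the main difference, 43 to 58 in CAR/PXR-deficient livers, 46 to 88 in wild type livers, 42 to 55 against CAR-deficient livers, 88 to 100 against PXR-deficient livers, 82 to 100 for the interaction, and 12 to 17 called probes with the larger part in Cy5. Leaving out PXR-deficient replicate 2, the 1 other array left out, gave 56, 65, 100, 60, 90 and 89 calls for the 6 comparisons in the same order. The replicate number as a block gave 45 calls for the main difference, 55 in CAR/PXR-deficient livers, 77 in wild type livers, 49 against CAR-deficient livers, 92 against PXR-deficient livers and 89 for the interaction; 2 of 6 CAR/PXR-deficient arrays correlated best with the wild type array of their own number. Probes near background, such as Ppard, Cry1, Srebf2 and Abcc1, are limited by their signal.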

Other observations

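In limma 20 probes passed the test against 0 in both genotypes, which were measured on different arrays against different vehicle pools. They were 37.7% of the CAR/PXR-deficient calls and 22.5% of the wild type calls, the same shares as over all tested probes, of which 22.5% passed in CAR/PXR-deficient and 37.7% in wild type livers, so the number shared is not above background. Of these, 2 were raised in both genotypes, 8 were lowered in both, 6 were raised in CAR/PXR-deficient and lowered in wild type livers, and 4 were lowered in CAR/PXR-deficient and raised in wild type livers. Of the 10 that moved one way in both, 9 were not called different between genotypes.

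The named genes among these 9 are given here because of their values. Ppargc1a, a co-activator that promotes gluconeogenesis and mitochondrial genes, was lowered by both of its probes. The first had log2 ratios of -0.55 at the lowest, -0.34 at the median and -0.12 at the highest in CAR/PXR-deficient livers, against -0.91, -0.60 and -0.45 in wild type livers, and the second averaged -0.38 ± 0.24 in CAR/PXR-deficient and -0.71 ± 0.22 in wild type livers (SD, n = 6 each). The difference missed the threshold in limma at adjusted p of 0.0939 and 0.158. Gckr, the regulator of glucokinase, averaged -0.18 in CAR/PXR-deficient and -0.25 in wild type livers. Ppp1r3c, which targets a phosphatase to glycogen, averaged -0.39 in CAR/PXR-deficient and -0.37 in wild type livers. Cyp2d22, a P450 enzyme, averaged -0.22 in CAR/PXR-deficient and -0.18 in wild type livers.

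Crebbp, a histone acetyltransferase and co-activator chosen here after its values were seen, had log2 ratios of -0.21, -0.13 and -0.04 in CAR/PXR-deficient livers, against -0.74, -0.50 and -0.32 in wild type livers, and was higher in CAR/PXR-deficient livers by 0.40 ± 0.09 (SE, adjusted p = 0.00200 in limma).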
